A study of Homo sapiens with 4 samples.

Results

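The WAVE regulatory complex was followed through its 9 subunit genes, BRK1, WASF1, WASF2, WASF3, CYFIP1, CYFIP2, NCKAP1, ABI1 and ABI2, picked by name from the 25133 rows of the deposited tables that carry a gene symbol. All 9 were found, and 8 of them reached an average of 1 FPKM or more and entered the fit. The complex was chosen with the difference of BRK1 between the groups already known, so the changes of its members are given as a description, without p-values. RNA sequencing was done in MDA-MB-231, an established human breast cancer cell line with mesenchymal features, grown in medium with serum and infected by lentivirus with the help of Polybrene. The 2 control libraries came from cells given a scrambled short hairpin (shSCR, labelled wild type), and the 2 knockdown libraries from cells given a hairpin against JARID2 (shJARID2). JARID2 is an accessory subunit of Polycomb repressive complex 2. The labels give a single hairpin name per group and do not tell whether the libraries were grown as separate cultures; p-values therefore measure only the spread between these libraries, which may be technical.

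The WAVE complex turns signals from the small GTPase Rac into branched actin. A WAVE protein (encoded by WASF1, WASF2 or WASF3), an ABI protein and the small coiled-coil protein BRK1 bind each other, and this unit sits on a dimer of a CYFIP protein with NCKAP1. At rest the complex holds back the end of the WAVE protein that binds the Arp2/3 complex; Rac binding to the CYFIP subunit frees it, and Arp2/3 then starts actin branches in lamellipodia, the sheets that crawling cells push forward. The subunits are known to protect each other from degradation, so transcript levels need not be protein levels.

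Values are FPKM (fragments per kilobase of exon, scaled to the fragments of the library). Each change is the difference in log2(FPKM + 1), shJARID2 minus shSCR, called a log2 fold change here; on that scale low genes appear to change less than they do. It is followed where useful by a GC-corrected value. That correction removes from each library the smooth trend of its values with transcript GC content. The steps between low FPKM placed the depth at about 12800000 to 16200000 counted reads per library. The knocked-down gene JARID2 measured 10.8 and 10.8 FPKM in the controls and 3.88 and 3.91 after knockdown (log2 fold change -1.27, SE 0.059), a fall with an adjusted p of 0.0014 by limma. Of the markers chosen for this line, CD44 was at 68.9 to 79.7 FPKM. AXL was high in all 4 libraries but fell, from 393 and 417 to 167 and 186 FPKM (log2 fold change -1.19, GC-corrected -0.62, called lower by limma in both fits). CDH1, ESR1 and PGR were at most 0.203, and the leukocyte, endothelial, fibroblast and liver markers PTPRC, PECAM1, COL1A1 and ALB were at most 0.837. VIM, the mesenchymal marker expected to be high, was listed at only 2.10 to 4.20 FPKM, and the cofilin gene CFL1 at 0.50 to 1.26, although cofilin is abundant in most cells; whether such low listed values are true levels was not tested.

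Shown are the regions before the RefSeq transcription starts of BRK1, ABI1 and NCKAP1. These genes were taken as the 3 subunits with higher FPKM that passed the threshold of the fit as measured. NCKAP1 was called lower after GC correction. The windows examined are the 250 bases before the RefSeq start in GRCh38.p14, and GENCODE places the gene starts of BRK1, ABI1 and NCKAP1 83, 129 and 401 bases further upstream than RefSeq. Printed 5′ to 3′ are the stretches before both starts, chr3:10115425-10115591 on the + strand for BRK1 and chr10:26861088-26861208 on the - strand for ABI1. Beside them stand 30 bases around a shared palindrome at chr3:10115625-10115654 for BRK1 (+ strand), chr10:26861166-26861195 for ABI1 (- strand) and chr2:183038500-183038529 for NCKAP1 (- strand). Capitals mark that palindrome, in which GCGC is followed after a gap of 2 bases of any kind by GCGC again. The gap bases are AG in BRK1, AT in ABI1 and CG in NCKAP1, so with its gap the BRK1 site is not an exact palindrome. By the GENCODE starts, the BRK1 site and the whole NCKAP1 window lie inside the gene. The ABI1 site lies before both starts.
BRK1, before both starts: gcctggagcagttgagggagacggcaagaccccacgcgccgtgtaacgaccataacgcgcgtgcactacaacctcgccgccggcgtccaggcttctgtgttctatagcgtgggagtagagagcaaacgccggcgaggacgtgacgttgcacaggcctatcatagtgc
ABI1, before both starts: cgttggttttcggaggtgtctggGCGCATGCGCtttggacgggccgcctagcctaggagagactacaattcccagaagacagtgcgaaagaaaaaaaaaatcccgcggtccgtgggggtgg
BRK1, palindrome: tggcctggcaGCGCAGGCGCactagaggcc
ABI1, palindrome: aggtgtctggGCGCATGCGCtttggacggg
NCKAP1, palindrome: cctcgcggggGCGCCGGCGCtgccgatcag

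All 3 windows are rich in GC and CpG, with 63.6% GC and 24 CpG in BRK1, 61.2% and 19 in ABI1, and 74% and 30 in NCKAP1, against medians of 58% and 11 over 35116 RefSeq windows of this length. The GCGC palindrome, searched with bases of any kind in its gap, occurs in each of the 3 and in 7.16% of all windows. It also occurs in that of ABI2, which did not pass, and in none of the windows of WASF1, WASF3, CYFIP1 and CYFIP2, so 4 of the 8 members with an entry hold it. The 7.16% counts windows rather than genes and was not matched for GC or CpG content. The GC box, searched on both strands as GGGCGG, occurs in ABI1 and NCKAP1 but not in BRK1, and in 42.6% of all windows. None of the 3 holds the TATA box, searched on both strands as TATAAA, which 10.7% of all windows hold. None holds a CCAAT box either (32.0% of all windows), nor the ETS core, searched as CCGGAA on both strands (14.5%). The motifs were picked with these sequences in view, and a match is a description.

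BRK1 was the member whose level differed most between the groups. In GRCh38 (GENCODE release 29) its gene (ID 55845) spans bases 10115592 to 10127190 of chromosome 3, + strand, with 1 annotated transcript, 1233 exon bases and a coding sequence of 225 bases, the shortest of the 9. It measured 4.76 and 4.86 FPKM in the shSCR libraries and 31.9 and 24.3 in the shJARID2 libraries. The knockdown libraries differed from each other by more than the controls did, but the groups lay far apart. The means were 4.81 ± 0.0693 and 28.1 ± 5.39 FPKM (SD, n = 2 each), a ratio of 5.83. This stood on 91 and 97 reads in shSCR and 509 and 383 in shJARID2. The log2 fold change was 2.31 (SE 0.14), the 12th highest of 12455 tested rows, and the GC-corrected value was 2.23 (SE 0.13). Left out in turn, the 4 libraries gave values from 2.12 to 2.50. No exon base of BRK1 is shared with another annotated gene, and 1 pseudogene copy is annotated by symbol, so reads may have been shared with it. WASF1 and ABI1 also have 1 annotated copy each. In bulk RNA, a change in the share of cells that express a gene and a change of RNA per cell cannot be told apart.

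BRK1 was compared with other genes of short coding sequence. Among tested protein-coding genes with a coding sequence of at most 300 bases (153 genes), the median log2 fold change was 0.25 and 44.4% were called higher. Among the 10279 with longer ones the median was -0.034 and 29.7% were called higher. After GC correction the medians were 0.17 and 0.0038. A log2 fold change of 2 or more, the size seen in BRK1, was found in 3 of the 153 short genes, BRK1 included, and in 3 of the 10279 longer ones. Among 842 genes within 1 percentage point of the GC content of BRK1 (47.5%) the median was 0.052. The part of coding length in the change of BRK1 was not tested.

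**Figure D1:**
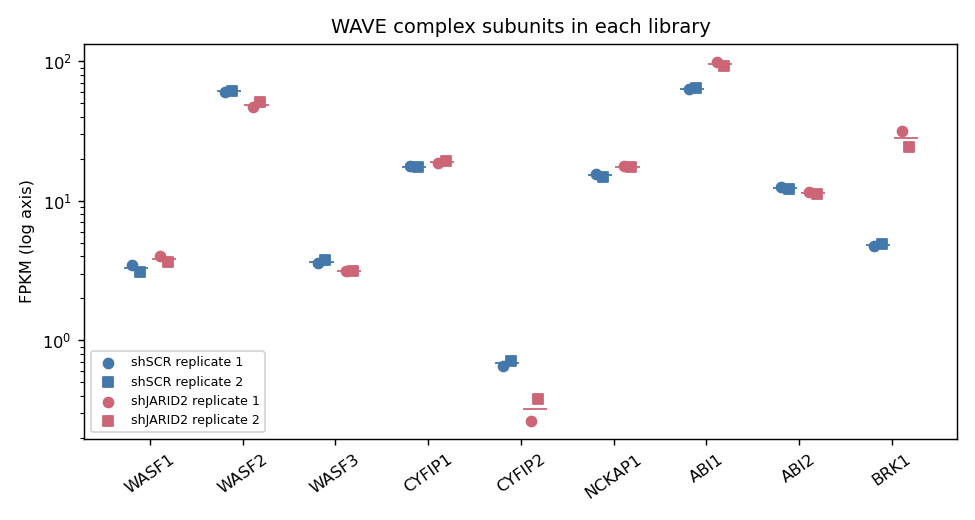
FPKM (log axis) of the 9 WAVE complex genes in each library, with a line at the mean of each group. BRK1 lies near 4.81 in both shSCR libraries and at 31.9 and 24.3 in the shJARID2 libraries, while the 2 groups of the other 7 tested genes lie close together.

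Of the 3 WAVE genes, only WASF2 was abundant. WASF2 (ID 10163, chromosome 1 from 27404226 to 27490158, - strand), which encodes the widely expressed WAVE2, measured 60.7 and 61.7 FPKM in the controls and 46.7 and 50.8 after knockdown. Both knockdown libraries were below both controls, with a log2 fold change of -0.32 (SE 0.056, GC-corrected -0.19). WASF1 (ID 8936, chromosome 6 from 110099819 to 110180004, - strand), known for its role in neurons, was at 3.44 and 3.11 FPKM in the controls and 4.03 and 3.67 after knockdown. Its groups were separate but near each other (0.18, SE 0.092, GC-corrected 0.032). WASF3 (ID 10810, chromosome 13 from 26557703 to 26688948, + strand), linked to invasion of breast cancer cells, was at 3.59 and 3.73 FPKM in the controls and 3.13 and 3.16 after knockdown (-0.17, SE 0.079, GC-corrected -0.34). Exons of AL159978.1 on the other strand cover 38.3% of the exon bases of WASF3. The use of strand in counting is not given in the sources used here, so its values are uncertain.

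The 2 ABI genes, whose products link the WAVE protein to the rest of the complex and bind the ABL kinases, differed from each other. ABI1 (ID 10006, chromosome 10 from 26746593 to 26861087, - strand) had the highest FPKM of the complex, with 63.6 and 63.9 in shSCR and 98.9 and 92.5 in shJARID2. The knockdown libraries were clearly above the controls (0.58, SE 0.049), but the GC-corrected value was only 0.16 (SE 0.040), and ABI1 has a low GC content of 38.1%. ABI2 (ID 10152, chromosome 2 from 203328219 to 203447723, + strand) was at 12.6 and 12.2 FPKM in the controls and 11.5 and 11.3 after knockdown, a small separation (-0.12, SE 0.052, GC-corrected -0.081). Exons of RAPH1 and AC080075.1, on the other strand, cover 38.1% of the exon bases of ABI2, so its values are uncertain.

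The CYFIP subunit, which receives Rac, came almost wholly from CYFIP1. CYFIP1 (ID 23191, chromosome 15 from 22867052 to 22981063, - strand) measured 17.6 and 17.5 FPKM in the controls and 18.7 and 19.3 after knockdown (0.11, SE 0.046, GC-corrected 0.24). Exons of NIPA2 cover 12.8% of its exon bases. CYFIP2 (ID 26999, chromosome 5 from 157266079 to 157395595, + strand) was at 0.658 and 0.706 FPKM in the controls and 0.265 and 0.379 after knockdown. These values stood on 107 and 120 reads in shSCR and 36 and 51 in shJARID2, a ratio of mean FPKM of 0.472, and the gene lay under the filter and was not fitted with the others.

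NCKAP1, the partner of CYFIP in the complex, had a direction that depended on the correction. The gene (ID 10787, chromosome 2 from 182909115 to 183038858, - strand) measured 15.6 and 14.8 FPKM in the controls and 17.6 and 17.5 after knockdown. Both knockdown libraries were above both controls (0.20, SE 0.051), yet the GC-corrected value was -0.30 (SE 0.043). At 35.6% it has the lowest GC content of the 9 genes. NCKAP1L and ABI3, paralogues mostly of blood cells, were at most 0.0811 and 0.151 FPKM.

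For 8 fitted members the count past the threshold was read beside the background. BRK1, ABI1 and NCKAP1 were called higher and WASF2 lower (adjusted p below 0.05, limma), so 4 of 8 were called, while 59.7% of all tested rows were, 28.0% higher and 31.6% lower. After GC correction 3 were called higher (BRK1, ABI1, CYFIP1) and 3 lower (WASF2, WASF3, NCKAP1), beside 44.2% of all rows, 22.7% higher and 21.4% lower. The call of NCKAP1 was lost without any 1 of the 4 libraries (0.16 to 0.23) and that of WASF2 without shSCR replicate 2 (-0.31). In all 9 genes the groups did not overlap, 5 higher and 4 lower, beside 82.9% of tested rows, 39.8% higher and 43.1% lower. Since the complex was chosen with this contrast known, nothing is read from these counts.

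**Figure D2:**
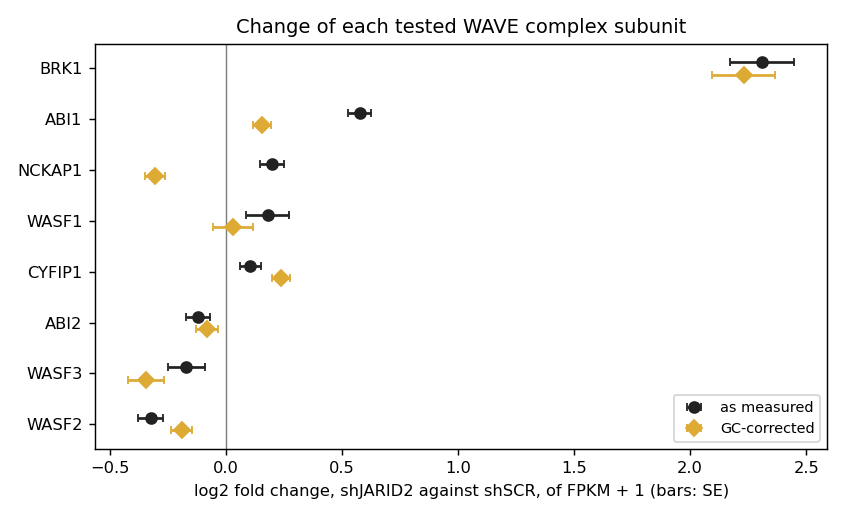
Log2 fold change of shJARID2 against shSCR (horizontal axis, log2 of FPKM + 1, bars SE) of the 8 tested WAVE complex genes, as measured and GC-corrected. BRK1 stands at 2.31 and 2.23, the other 7 lie between -0.34 and 0.58, and NCKAP1 changes sign.

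BRK1 set against its partners gives the pattern of the complex within each library. In shSCR, BRK1 was 0.306 and 0.328 times the median FPKM of the 7 fitted partners, and in shJARID2 1.81 and 1.38 times. It thus went from under to over the median partner. Against ABI1 the ratio was 0.0748 and 0.0760 in shSCR and 0.322 and 0.262 in shJARID2, so BRK1 stayed below ABI1 in all 4 libraries. Against WASF2, the main WAVE gene, it was 0.0784 and 0.0788 in shSCR and 0.683 and 0.478 in shJARID2. Against CYFIP1 the ratio crossed 1, from 0.270 and 0.278 to 1.70 and 1.26. The log2 fold change of BRK1 exceeded the median of the 7 partners (0.11) by 2.20, which stayed between 1.99 and 2.41 with a library left out and was 2.31 after GC correction.

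**Figure D3:**
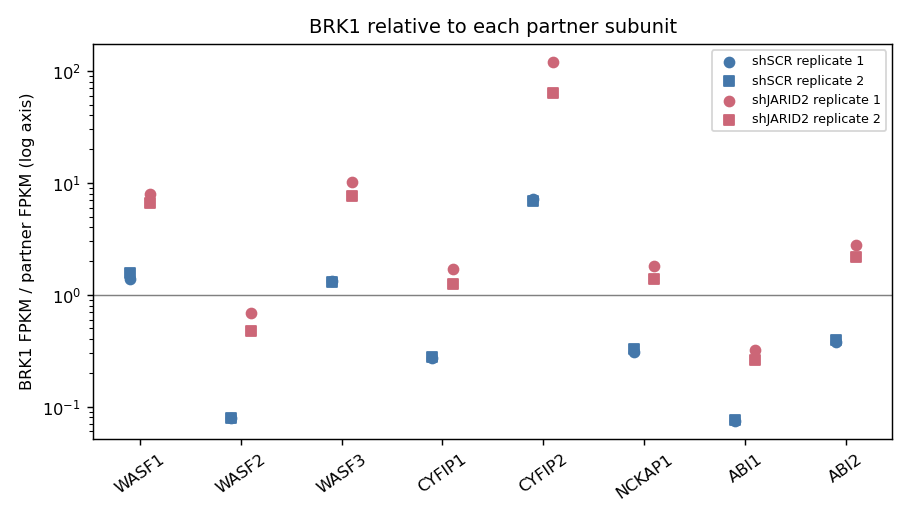
Ratio of BRK1 FPKM to the FPKM of each partner (log axis) in the 4 libraries. The shJARID2 points lie above the shSCR points for all 8 partners, and the ratio to WASF2 goes from 0.0784 and 0.0788 to 0.683 and 0.478.

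The order of levels in FPKM was ABI1, WASF2, CYFIP1, NCKAP1, ABI2, BRK1, WASF3, WASF1 and CYFIP2 in shSCR, and no neighbours in that order overlapped over the 2 libraries. In shJARID2 BRK1 moved from the 6th place to the 3rd, and WASF1 and WASF3 changed places, again without overlap. The order rests on the exon length used: NCKAP1 and ABI2 have 22520 and 23331 annotated exon bases, over which their reads are spread. With reads counted per kilobase of the longest coding sequence, scaled to the library as in FPKM, WASF2 (232), ABI2 (188) and ABI1 (177) led in shSCR, followed by NCKAP1 (101) and CYFIP1 (48.6), and BRK1 (26.4) was again the 6th. On that scale BRK1 was at 154 in shJARID2, the 4th after ABI1 (265), WASF2 (185) and ABI2 (172), but it overlapped with ABI2: BRK1 was at 175 and 133 and ABI2 at 174 and 171 in the 2 libraries. Reads of untranslated parts count in these values too, so they are a second view and not a better one.

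Within the families of alternative subunits the leading gene by FPKM was the same in all libraries. WASF2 made up 89.6% and 90.0% of the summed WASF FPKM in shSCR and 86.7% and 88.2% in shJARID2. The share of WASF1 was 5.08% and 4.54% in shSCR and 7.48% and 6.36% in shJARID2, and that of WASF3 5.30% to 5.81% over the 4 libraries. CYFIP1 made up 96.4% and 96.1% of the CYFIP sum in shSCR and 98.6% and 98.1% in shJARID2. ABI1 made up 83.4% and 84.0% of the ABI sum in shSCR and 89.6% and 89.2% in shJARID2, a higher share in both knockdown libraries. Reads of ABI1 (4159 and 4365 in shSCR) and ABI2 (4571 and 4612) were of similar number, so the ABI share depends on the exon length of ABI2. Per kilobase of coding sequence, ABI2 led in shSCR (192 and 185, ABI1 176 and 177). On that scale ABI1 led in shJARID2 (274 and 256, ABI2 174 and 171).

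**Figure D4:**
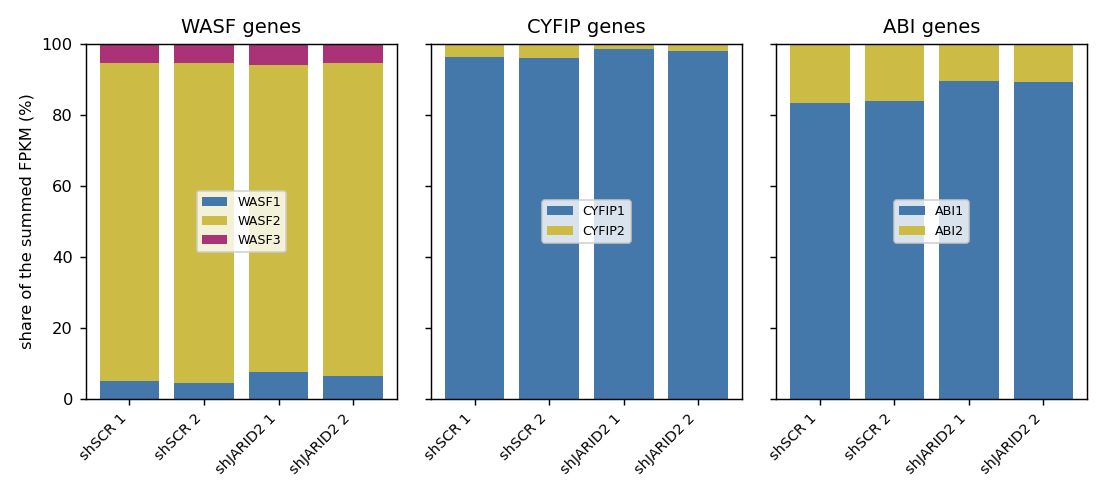
Share of the summed FPKM (%) of each WASF, CYFIP and ABI gene in the 4 libraries, as stacked bars. WASF2, CYFIP1 and ABI1 lead in every library, and the share of ABI1 is 83.4% and 84.0% in shSCR and 89.6% and 89.2% in shJARID2.

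The rows most like BRK1 over the 4 libraries were sought by the Euclidean distance between values of log2(FPKM + 1) less the shSCR mean. The 5 nearest of the tested rows were RPS7P3 (distance 0.12), CHAC2 (0.22), RPL15P3 (0.26), MZT1 (0.31) and RPS23P8 (0.33). CHAC2 degrades glutathione and MZT1 is a small subunit of gamma-tubulin complexes. RPS7P3, RPL15P3 and RPS23P8 are ribosomal protein pseudogenes, whose reads may come from the parent genes. MZT1, with 2 pseudogene copies annotated by symbol, went from 6.96 and 6.69 FPKM to 36.5 and 28.8. As in BRK1, shJARID2 replicate 1 was the higher of the knockdown libraries in all 5 rows. The choice by distance over the same libraries favours such a likeness. RPS7P3 went from 22.2 and 25.4 to 140.3 and 109 FPKM. GC-corrected log2 fold changes were 1.48 (MZT1), 1.87 (CHAC2), 2.15 (RPS23P8), 2.17 (RPS7P3) and 2.65 (RPL15P3). That of BRK1 was 2.23. CHAC2 stood on only 22 and 31 reads in shSCR.

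Among rows with a symbol, 4 other protein-coding genes lie within 60000 bases of BRK1 on chromosome 3. The log2 fold changes of the 3 that were tested ran from -0.13 to 0.28. FANCD2OS, of the - strand, ends 7360 bases before BRK1, was not tested and was at 0.477 and 0.717 FPKM in the controls and 1.10 and 0.495 after knockdown. FANCD2, a Fanconi anaemia gene, was at 13.9 and 14.0 FPKM in the controls and 17.1 and 15.8 after knockdown (0.22, GC-corrected 0.022). VHL, a ubiquitin ligase subunit, was at 16.8 and 16.1 FPKM in the controls and 20.1 and 20.3 after knockdown (0.28, GC-corrected 0.19). IRAK2, a kinase of interleukin-1 signalling, was at 10.6 and 12.3 FPKM in the controls and 10.2 and 10.5 after knockdown (-0.13, GC-corrected 0.018). VHL was called higher in both fits, FANCD2 only as measured and IRAK2 in neither. Of all tested rows, 28.0% were called higher as measured and 22.7% after GC correction.

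Downstream of WAVE, genes of the Arp2/3 complex changed in both directions. Of its 10 genes 9 were tested, and 3 were called higher and 1 lower, beside 28.0% and 31.6% of all tested rows, with a median log2 fold change of 0.076 against -0.018 over all tested rows. ACTR3, an actin-related core subunit, rose from 21.5 and 22.2 to 31.9 and 29.7 FPKM (0.47). ARPC5 (0.43) and ARPC3 (0.37) also rose. ARPC5L, the alternative form of ARPC5, fell from 2.54 and 3.11 to 1.2 and 1.06 FPKM (-0.84). After GC correction the fall of ARPC5L remained (-0.75), but ACTR3 (0.16), ARPC5 (0.058) and ARPC3 (-0.038) were no longer called. With that correction 1 was called higher and 2 lower, beside 22.7% and 21.4% of all rows: ACTR2 was called lower (-0.31, as measured -0.079) and ARPC1B higher (0.55, as measured 0.0096). ARPC2 (0.12, GC-corrected -0.041), ARPC4 (-0.21, GC-corrected 0.041) and ACTR3B (0.076) did not pass, and ARPC1A was listed at no more than 0.314 FPKM and not tested. Exons of other genes cover 58.4% of the exon bases of ARPC1A, 32.4% of ARPC1B and 28.3% of ARPC4, so their values are uncertain. Pseudogene copies are annotated by symbol for ACTR3B (6), ARPC3 (3) and ACTR3 (2).

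Upstream of WAVE, genes of Rac signalling were tested for 23 of 28. Of these 2 were called higher and 12 lower (median -0.23, all tested rows -0.018). All rows, with 28.0% higher and 31.6% lower, lean lower by less. After GC correction 3 were higher and 10 lower (median -0.15), beside 22.7% and 21.4% of all rows. Without shSCR replicate 2 the counts were 0 higher and 7 lower. RAC3 fell from 8.07 and 9.06 to 2.02 and 3.63 FPKM (-1.35), but its call was lost with GC correction (-0.49), with no filter (-1.35) and in the fit without shSCR replicate 2 (-1.28). The kinase gene ABL1 (-1.01, GC-corrected -0.58), RAC2 (-0.998, GC-corrected -0.28) and VAV2, a Rac exchange factor (-0.95, GC-corrected -0.52), fell too. RAC1, the main Rac of most cells and chosen after its values were seen, went from 81.0 and 81.9 to 69.6 and 65.1 FPKM (-0.27, GC-corrected -0.21). The call of RAC1 was lost without shSCR replicate 1 (-0.28) or shSCR replicate 2 (-0.26). For RAC1, 9 pseudogene copies are annotated by symbol.

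Among other activators of Arp2/3, 6 of 11 tested were called higher and 1 lower (median 0.30), beside 28.0% and 31.6% of all rows. After GC correction 4 were higher and 1 lower (median 0.13), a share called that is near the 44.2% of all rows. WASL, which encodes N-WASP, rose from 8.09 and 9.47 to 16.8 and 15.7 FPKM (0.82, GC-corrected 0.48). WASHC4 (0.69, GC-corrected 0.19) and WASHC3 (0.54, GC-corrected 0.28) of the endosomal WASH complex rose, as did WIPF1, which binds WASP proteins (0.48, GC-corrected 0.57). The single lower gene, CTTN (-0.18), named after its values were seen, was not called without shSCR replicate 1 (-0.21), shSCR replicate 2 (-0.15) or shJARID2 replicate 1 (-0.14), and was at 0.065 after GC correction, where WASHC2C (-0.23) was the 1 called lower.

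Genes that disassemble branches or act on filament ends were called in both directions, beside 59.7% of all rows called as measured and 44.2% after GC correction. Of 13 branch inhibitors and turnover genes tested, 3 were called higher and 5 lower (5 and 4 after GC correction), a share as measured that is near that of all rows. CORO1B (-1.41, GC-corrected -0.62) and CORO1C (-1.18, GC-corrected -1.21), coronins of the leading edge, fell, and the cofilin gene CFL2 rose from 3.77 and 3.32 to 9.61 and 9.36 FPKM (1.21, GC-corrected 0.77). SSH3, a phosphatase of cofilin, fell (-1.02), a call lost after GC correction (-0.30). Of 16 genes of filament ends and elongation, 6 were called higher and 7 lower (4 and 8 after GC correction). The profilin gene PFN1 fell from 11.9 and 19.8 to 4.16 and 3.97 FPKM (-1.69, GC-corrected -1.17). Its controls lay far apart (SD 5.62), and 10 pseudogene copies are annotated by symbol, so reads may have been shared with them. PFN2 rose from 47.3 and 45.6 to 100.4 and 91.5 FPKM (1.03, GC-corrected 0.93). The formin gene FMNL1 (-1.19, GC-corrected -0.62) and VASP, an elongation factor (-1.09, GC-corrected -0.62), fell. Exons of other genes cover 24.3% of the exon bases of CORO1B and 24.3% of those of FMNL1.

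**Figure D5:**
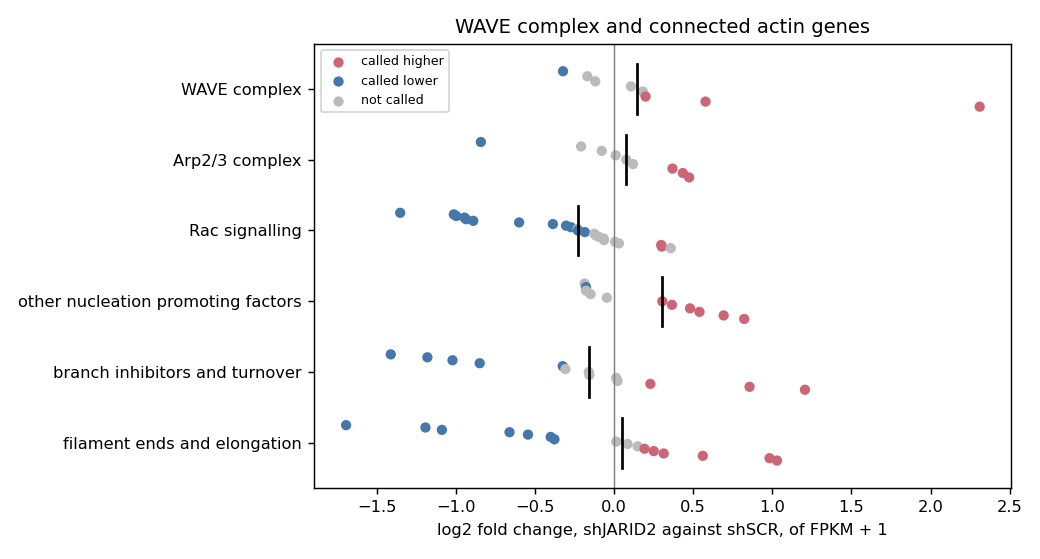
Log2 fold change of shJARID2 against shSCR (horizontal axis, log2 of FPKM + 1) of each tested gene of the WAVE complex and 5 connected lists, coloured by call, with a black line at the median. BRK1 at 2.31 is the point farthest to the right, the Rac list has a median of -0.23, and the list of other activators one of 0.30.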

How the data were processed

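RNA-seq was analysed in 4 libraries of MDA-MB-231 cells, 2 shSCR and 2 shJARID2, grouped as labelled. Values in the deposited files are FPKM, as the file headers state, in 1 file of 85553 rows per library made by the authors. Trimmomatic, HISAT2, SAMtools and featureCounts are named in the submitters' processing notes; for versions, strand, build and annotation: not given in the sources used here. Rows without a symbol (60420) were left out. Multiplied by GENCODE release 29 exon lengths (GRCh38), low FPKM gave whole reads: 95.9% to 96.4% of values up to 20 reads lay within 0.05 of a whole number, which gave the depths and is why that annotation was used. For BRK1 the recovered reads lay at most 0.162 from a whole number.

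Rows with a mean of at least 1 FPKM (12455) were fitted in R 4.3.3 by limma 3.58.1, on the scale log2(FPKM + 1) (trended prior, group as the only term, 2 residual and 2.36 prior degrees of freedom) and adjusted over all rows by Benjamini-Hochberg. The GC correction subtracted a loess fit (span 0.3, degree 2) on the median GC content of a gene's transcripts, for 12039 rows. The fit was tested on simulated data. Members, lists, tests and alternatives were chosen with earlier results of these data known. Named genes were the 9 members, JARID2, all Arp2/3 subunits and 2 paralogues, up to 4 called genes with the largest change per other list, the 5 rows nearest to BRK1, and genes overlapping or neighbouring members. Alternatives were pseudocount, filter, scaling, limma-voom on recovered reads, GC correction, replicate block and each library left out.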

Additional observations from a re-analysis of the deposited data

How the results depend on the processing

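The log2 fold change of BRK1 less the median of its partners was 2.20 and moved by more than the spread between replicates (SD 0.19) with limma-voom on recovered reads (2.41), and ran from 1.99 to 2.41 with a library left out. Members called lower, 1 as reported, were 3 after GC correction, 2 with limma-voom and 2 with a replicate block plus GC correction, and 0 to 1 with a library left out; members called higher were 2 in each of those 4 fits. Over all rows, 3941 lower genes became 2582 after GC correction and 2326 with a replicate block plus GC correction. With a library left out, 2168 to 3068 genes were higher and 2462 to 3763 lower, the fewest without shSCR replicate 2. A fit that leaves a group with 1 library assumes that it varies like the other group. JARID2 stayed lower and past the threshold in all 13 alternatives.

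Of 40 named genes followed through every alternative, 5 changed sign after GC correction, with or without the replicate block: NCKAP1 (-0.30, called), ARPC2 (-0.041), ARPC3 (-0.038), ARPC4 (0.041) and CTTN (0.065). The neighbours of BRK1 and genes named only under other observations were not among the 40. Of those, IRAK2 (0.018), CAPZA1 (-0.14, called) and DIAPH3 (-0.025) also changed sign after GC correction. ACTR3B was at -0.0080 without shJARID2 replicate 2 and ARPC1B, which ran from -0.066 to 0.085 with a library left out, was below 0 without shSCR replicate 2; neither was called. The cause of these changes was not tested. Same-numbered libraries did not deviate together (correlation 0.029), so the numbers were not taken as pairs. With the replicate block 3380 genes were higher and 3831 lower, and none of the 40 genes changed its call. With the block and the GC correction, the call of ABI1 (0.16) was lost. WASF3 (-0.34), called lower with the GC correction alone, was not called there either. The depth behind BRK1 in shSCR, 91 and 97 reads, limits the precision of its ratio.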

Other observations

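Some actin genes moved apart from a paralogue; the genes named here were chosen after their values were seen. PFN1 and PFN2 moved apart as described, and ABL1 fell from 37.9 and 38.6 to 17.8 and 19.1 FPKM while ABL2 rose from 24.0 and 23.0 to 29.8 and 28.6 (0.30, GC-corrected 0.39). DIAPH1, a formin gene, fell from 42.5 and 43.6 to 27.0 and 31.5 FPKM (-0.54, GC-corrected -0.45), and its paralogue DIAPH3 rose as measured from 26.0 and 26.4 to 32.3 and 33.3 (0.31), but not after GC correction (-0.025). Capping protein is a heterodimer of an alpha and a beta subunit. CAPZB, the gene of the beta subunit, fell from 56.5 and 57.0 to 34.0 and 37.2 FPKM (-0.66, GC-corrected -0.44). Of the alpha genes, CAPZA2 rose from 5.77 and 5.46 to 12.4 and 11.7 FPKM (0.98, GC-corrected 0.61), and CAPZA1 was called higher as measured (0.19) and lower after GC correction (-0.14).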
